A study of Mus musculus with 8 samples.

Results

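This comparison sets AML12 hepatocytes transfected with v-erbA against AML12 hepatocytes while both were in retinoic acid (RA). AML12 is an established line of mouse hepatocytes. The arrays chosen were the v-erbA line in 1 µM RA at 3 h, the v-erbA line in 1 µM RA at 24 h, AML12 in 1 µM RA at 3 h and AML12 in 1 µM RA at 24 h. These are 4 of the 8 arrays of the series, with 1 array for each line and time, and the log2 ratio of the v-erbA line over AML12 was taken at each time. The other 4 arrays are the same lines and times without RA, and they enter the estimate of the spread and the comparison with and without RA. Time was taken from the sample titles, because the descriptions of some arrays titled 24 h name 3 h. All groups share the AML12 background, and the transfection is the only labelled difference between the lines. No array of AML12 cells with an empty vector was analysed here, and the sources used here do not say whether the v-erbA line is 1 clone or a pool of cells. An effect of v-erbA, of the transfection and of a difference between cell populations therefore cannot be told apart. The array's mouse probe sets give no reading of v-erbA expression that was used here.

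v-erbA is a viral form of the thyroid hormone receptor alpha, carried by an avian erythroblastosis virus. It binds DNA but has lost hormone-driven activation, and it is known as a dominant repressor of genes that thyroid hormone receptors and retinoic acid receptors control. Retinoic acid receptors pair with retinoid X receptors on paired core elements, repress with corepressors when empty and activate when RA is bound. In hepatocytes, retinoid and thyroid hormone receptors share their partner RXR and their DNA sites with other receptors that control bile acid, lipid and drug metabolism.

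Signals are intensities in arbitrary units on a linear scale. Median signals of the 4 RA arrays ranged from 71.2 to 75.9 units, and no array stood apart by its mean signal, which lay between 374 and 384 units. A gene was read from the probe set with the highest mean signal, values were taken as log2(signal + 19.9), and 11997 genes passed a filter that asked for at least 2 of 8 arrays over the pooled median of 73.5 units. On this scale the change of a dim gene comes out smaller than it is. Where both RA arrays of the lower line lay at or below 73.5 units, the fold is given as a lower bound ("at least N-fold"), the mean of the brighter line against that level. Each adjusted p comes from limma with Benjamini-Hochberg adjustment over the 11997 genes. With 1 array per line, treatment and time, these p-values measure only the departure of 8 arrays from a model with line, treatment and time. That spread may be technical.

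In RA, 3982 genes (33.2% of those tested) differed between the lines. Of these 1809 (15.1%) were higher and 2173 (18.1%) lower in the v-erbA line. Most differences were small. The mean change was under 1.5-fold for 2845 of the 3982 genes (71.4%), and 399 genes differed by at least 2-fold, 165 of them higher and 234 lower. All 3982 genes had the same direction at 3 h and 24 h, which the test itself favours; over all 11997 genes the share was 79.8%. Without the 3 h array of the v-erbA line 2267 genes passed, without its 24 h array 1526, without the 3 h array of AML12 2379 and without its 24 h array 2192.

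At 3 h alone, 160 genes (1.33%) were at least 2-fold higher and 214 (1.78%) at least 2-fold lower in the v-erbA line. At 24 h alone, 184 genes (1.53%) were at least 2-fold higher and 294 (2.45%) at least 2-fold lower. These counts rest on 1 array per line and have no test. The 2-fold genes of both times overlapped: 118 genes were at least 2-fold higher and 171 at least 2-fold lower at both times, and 0 genes moved 2-fold in opposite directions. The 289 shared genes are 77.3% of the 374 found at 3 h and 60.5% of the 478 found at 24 h. Across the 11997 genes the ratios at 3 h and 24 h had a Pearson r of 0.83 and a Spearman rho of 0.76; genes are not independent and these values are a description.

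**Figure D1:**
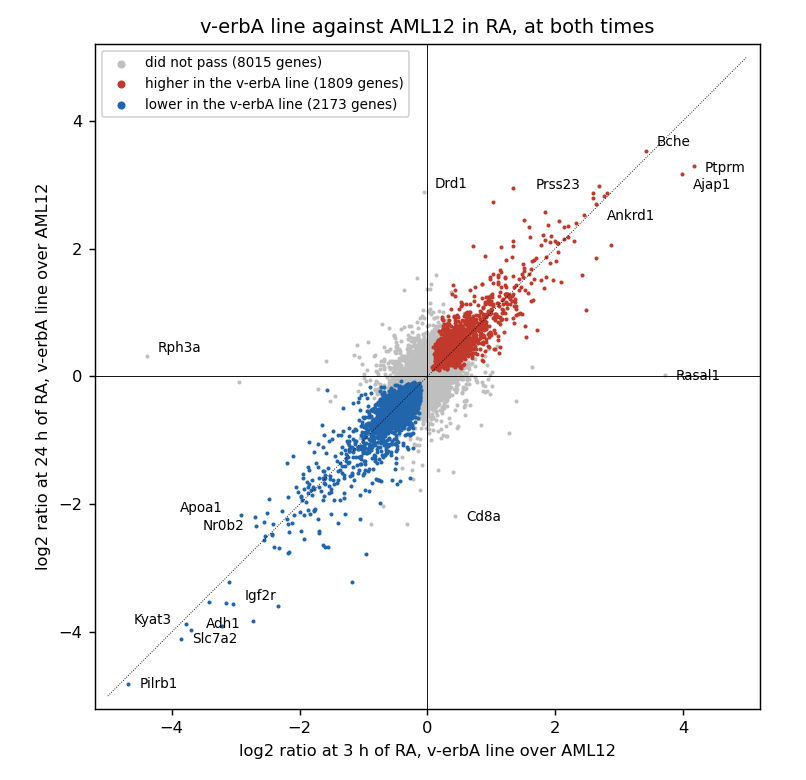
Each point is 1 of 11997 genes, plotted by its log2 ratio of the v-erbA line over AML12 at 3 h of RA (horizontal) and at 24 h of RA (vertical); red genes passed the test as higher in the v-erbA line and blue genes as lower. The 3982 coloured genes lie along the dotted diagonal, while a few grey genes such as Rph3a and Rasal1 lie on 1 axis only.

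The largest decrease belonged to Pilrb1, an activating paired immunoglobulin-like receptor. Its signal was 116 and 132 units in the v-erbA line at 3 h and 24 h, against 3461 and 4244 units in AML12, a log2 difference of -4.75 ± 0.10 (SE; adjusted p = 1.81e-07), or 26.8-fold. The paired receptors are a family of near-identical genes, so the gene behind the signal is uncertain. Slc7a2, a transporter of arginine and other cationic amino acids, had 131 and 84.1 units in the v-erbA line and 2158 and 1774 units in AML12, a difference of -3.98 ± 0.18 (SE; adjusted p = 5.63e-06). Kyat3, a kynurenine aminotransferase, had 224 and 192 units in the v-erbA line and 3125 and 3283 units in AML12, with a difference of -3.83 ± 0.11 (SE; adjusted p = 4.89e-07). In these 3 genes, chosen for the size of their change, both arrays of the v-erbA line lay far below both arrays of AML12.

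Several strongly lower genes fell to the dim range of the v-erbA arrays, where only a bound can be given. Klhl13, an adaptor of a cullin ubiquitin ligase that acts in cell division, had 56.6 and 53.7 units in the v-erbA line and 1029 and 1059 units in AML12 (at least 11.4-fold lower, adjusted p = 3.72e-07). Igf2r, the receptor that clears IGF2 and carries mannose-6-phosphate enzymes to lysosomes, had 53.3 and 39 units in the v-erbA line and 581 and 675 units in AML12 (at least 6.92-fold lower, adjusted p = 5.09e-06). Crtap, a subunit of the collagen prolyl 3-hydroxylase complex, had 14.9 and 9.2 units in the v-erbA line and 302 and 414 units in AML12 (at least 4-fold lower, adjusted p = 1.47e-05). Hpn, which encodes the hepatocyte surface protease hepsin, had 6.8 and 21.1 units in the v-erbA line and 219 and 462 units in AML12 (at least 3.63-fold lower, adjusted p = 2.43e-05). The groups did not overlap in any of these genes, which the choice of the largest changes past the test itself favours. The other genes among the 15 largest decreases were Lrg1, Adh1, Cyp4b1, Tmem45a, Atp9a, Apoa1, Prph and Mbnl3, with log2 differences between -3.47 and -2.52.

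Among the 15 largest increases, Ptprm, a receptor tyrosine phosphatase of cell contacts, had 387 and 370.0 units in the v-erbA line and 2.6 and 20 units in AML12 (at least 4.26-fold higher, adjusted p = 1.34e-05). Ajap1, a protein of adherens junctions, had 379 and 238 units in the v-erbA line and 5.2 and 8.9 units in AML12 (at least 3.43-fold higher, adjusted p = 2.99e-05). Bche, the butyrylcholinesterase that hepatocytes secrete, had 799 and 862 units in the v-erbA line and 56.9 and 56.7 units in AML12 (at least 9.1-fold higher, adjusted p = 2.79e-06). For these genes AML12 stayed below the level of 73.5 units on both RA arrays, so the size of the increase has no upper limit here.

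Other increases were measured on both sides. Ankrd1, a nuclear and sarcomeric ankyrin repeat protein known as a target of YAP, had 2417 and 3240.4 units in the v-erbA line and 371 and 482 units in AML12, a log2 difference of 2.67 ± 0.15 (SE; adjusted p = 1.35e-05). Prss23, a secreted serine protease, had 938 and 962 units in the v-erbA line and 121 and 119 units in AML12, a difference of 2.79 ± 0.16 (SE; adjusted p = 1.49e-05). Plac8 had 3625 and 3708 units in the v-erbA line and 708 and 683 units in AML12, a difference of 2.37 ± 0.07 (SE; adjusted p = 4.89e-07). In these 3 genes, also chosen for the size of their change, the arrays of 1 line lay much nearer to each other than to the other line. The remaining genes of the 15 were Qpct, Ceacam10, Armcx3, Hoxb13, Elavl2, Flt1, Sgce, Tgfbr3 and Praf2, with log2 differences between 2.24 and 2.84.

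**Figure D2:**
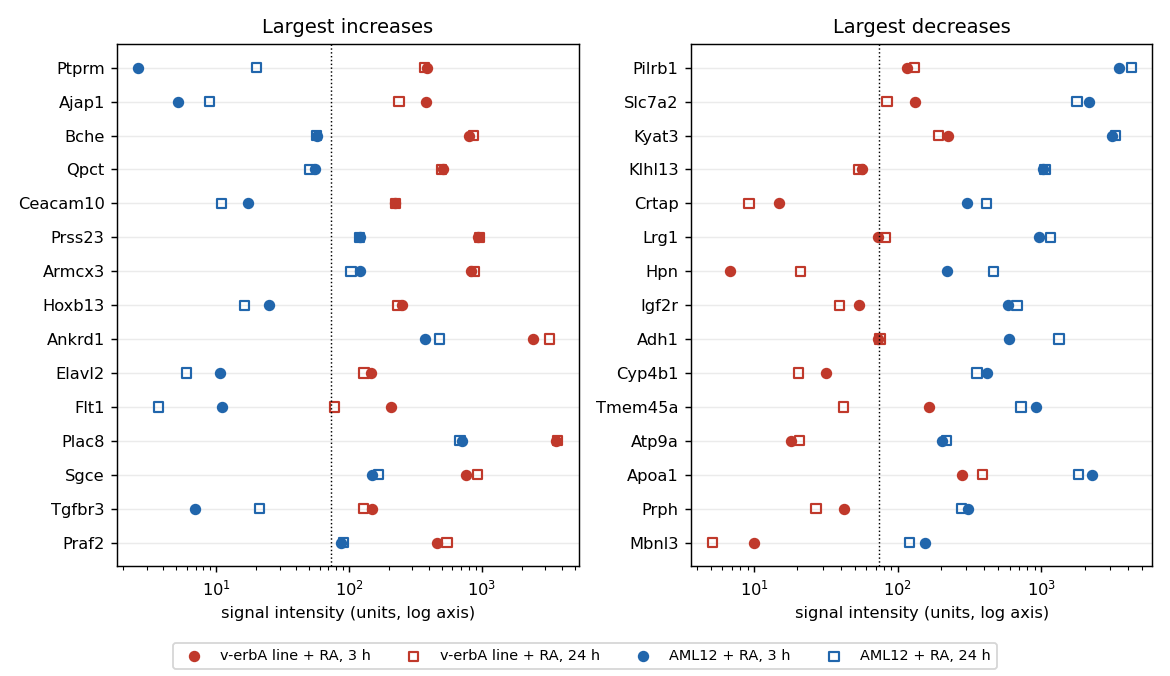
Signal intensity on a log axis for the 15 genes with the largest increases (left) and the 15 with the largest decreases (right) among genes past the test; red marks are the v-erbA line and blue marks AML12, filled for 3 h and open for 24 h of RA, and the dotted line is the pooled median of 73.5 units. In each of the 30 genes both v-erbA arrays lie on the same side of both AML12 arrays, which the choice by size of change favours.

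Of the receptors for RA and thyroid hormone, Rxra and Thra passed the test. Rxra, the retinoid X receptor that partners retinoic acid, thyroid hormone and bile acid receptors, had 229.6 and 260.1 units in the v-erbA line and 394 and 482 units in AML12, a log2 difference of -0.79 ± 0.08 (SE; adjusted p = 2.90e-04). Thra, the mouse counterpart of the chicken gene from which v-erbA derives, had 293 and 322 units in the v-erbA line and 203 and 224 units in AML12, a difference of 0.49 ± 0.09 (SE; adjusted p = 0.00412). Both calls were lost when all probe sets of a gene were averaged. Rarg had 219 and 66 units in the v-erbA line and 329 and 54.7 units in AML12 (adjusted p = 0.513), Rarb 78.5 and 50.2 units in the v-erbA line and 82.7 and 64.2 units in AML12 (adjusted p = 0.664) and Rxrb 607 and 727 units in the v-erbA line and 641 and 683 units in AML12 (adjusted p = 0.969). Rarg was lower at 24 h than at 3 h in both lines. Rara and Thrb lay under 73.5 units on all 8 arrays and were not tested. Of 7 receptor genes tested, 1 was higher and 1 lower, against 15.1% and 18.1% of all genes tested.

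Nr0b2, which encodes SHP, a receptor without a DNA-binding domain that represses bile acid synthesis and is itself a target of bile acid and retinoid receptors, was the nuclear receptor gene with the largest decrease. Its signal was 139 and 148 units in the v-erbA line, against 916 and 798 units in AML12, a log2 difference of -2.42 ± 0.18 (SE; adjusted p = 6.24e-05). Hnf4a, the receptor that maintains hepatocyte identity, had 1575 and 1218 units in the v-erbA line and 2421 and 2009 units in AML12, a difference of -0.66 ± 0.08 (SE; adjusted p = 5.57e-04). Pparg, the receptor of adipocyte differentiation, had 185 and 191 units in the v-erbA line and 84 and 68.4 units in AML12, a difference of 1.12 ± 0.14 (SE; adjusted p = 7.94e-04). Among 21 other nuclear receptors tested, 4 were higher and 4 lower, close to the background of 15.1% and 18.1%. Leaving out each RA array in turn, 1 to 3 were higher and 2 to 4 lower. Among 27 corepressors and coactivators, 6 were higher and 4 lower, and with each RA array left out there were 3 to 4 higher and 0 to 3 lower. Hdac5, a histone deacetylase of receptor corepressor complexes, had 423 and 669.6 units in the v-erbA line and 177 and 349 units in AML12, a difference of 1.04 ± 0.11 (SE; adjusted p = 2.73e-04). Ppargc1a, the coactivator of gluconeogenesis and mitochondrial genes, had 105 and 104 units in the v-erbA line and 51.9 and 37.3 units in AML12 (at least 1.33-fold higher, adjusted p = 0.00223).

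Of 22 known RA targets tested, 5 were higher and 4 lower, against 15.1% and 18.1% of all genes tested. With each RA array left out, 4 to 5 were higher and 1 to 3 lower. The median log2 difference was 0.00, against 0.00 over all genes tested. Ivl, the cornified envelope protein involucrin, had 559 and 432 units in the v-erbA line and 228 and 135 units in AML12, a difference of 1.38 ± 0.18 (SE; adjusted p = 8.02e-04). Meis1, a homeobox partner of Hox proteins, had 200.3 and 187 units in the v-erbA line and 73.6 and 64.6 units in AML12, a difference of 1.26 ± 0.13 (SE; adjusted p = 2.63e-04). Rai14, an actin-associated protein first found as RA-induced, had 461 and 462 units in the v-erbA line and 742 and 953 units in AML12, a difference of -0.84 ± 0.10 (SE; adjusted p = 5.36e-04). Named in full after their values were seen, the 5 higher genes were Ivl, Meis1, Rdh10, Foxa1 and Ets1, and the 4 lower genes Rai14, Gprc5b, Cyp26b1 and Tgm2. Several targets that RA receptors are known to control directly did not pass. Cyp26a1, the enzyme that degrades RA, had 65.1 and 74.7 units in the v-erbA line and 67.1 and 81.8 units in AML12 (adjusted p = 0.758). Dhrs3, which reduces retinaldehyde, had 1259 and 1821 units in the v-erbA line and 1171 and 1331 units in AML12 (adjusted p = 0.176), and it passed without the 3 h array of AML12. Nrip1, a corepressor induced by RA, had 968 and 1142 units in the v-erbA line and 1155 and 1014 units in AML12 (adjusted p = 0.878). Crabp2, a cellular RA-binding protein, had 154 and 4.0 units in the v-erbA line and 162 and 17.2 units in AML12 (adjusted p = 0.196). Tgm2, tissue transglutaminase, had 3890.1 and 4471 units in the v-erbA line and 4907 and 5623 units in AML12, a difference of -0.33 ± 0.08 (SE; adjusted p = 0.012); this call was lost without the 3 h array of the v-erbA line and without the 24 h array of AML12.

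Genes that supply and oxidise retinoids held the largest changes of the retinoid genes. Of 15 handling genes tested, 3 were higher and 5 lower (2 to 4 lower with each RA array left out). The list median was -0.19. Over all genes tested, 15.1% were higher and 18.1% lower. Adh1, an alcohol dehydrogenase that also oxidises retinol, had 72.8 and 75.1 units in the v-erbA line and 593 and 1328 units in AML12, a difference of -3.27 ± 0.32 (SE; adjusted p = 2.26e-04). Bco1, the enzyme that cleaves beta-carotene to retinaldehyde, had 147 and 116 units in the v-erbA line and 487 and 390.4 units in AML12, a difference of -1.60 ± 0.17 (SE; adjusted p = 2.90e-04). Fabp5, which carries fatty acids and RA to the nucleus, had 4633 and 4449 units in the v-erbA line and 2861 and 2457 units in AML12, a difference of 0.77 ± 0.07 (SE; adjusted p = 1.77e-04). Rdh10, the retinol dehydrogenase of RA synthesis, had 496 and 559 units in the v-erbA line and 351 and 318 units in AML12, a difference of 0.63 ± 0.10 (SE; adjusted p = 0.00238). In AML12 the Adh1 signal was brighter at 24 h than at 3 h, while both v-erbA arrays lay near the pooled median. Of 19 thyroid hormone responsive genes, 1 was higher and 3 lower, and 0 were higher with each RA array left out. Slc16a10, a carrier of aromatic amino acids and thyroid hormone, had 86.8 and 55.9 units in the v-erbA line and 195 and 201 units in AML12, a difference of -1.28 ± 0.17 (SE; adjusted p = 9.27e-04), and Me1, malic enzyme, 2371 and 2145 units in the v-erbA line and 3482 and 3419 units in AML12, a difference of -0.61 ± 0.06 (SE; adjusted p = 2.39e-04).

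**Figure D3:**
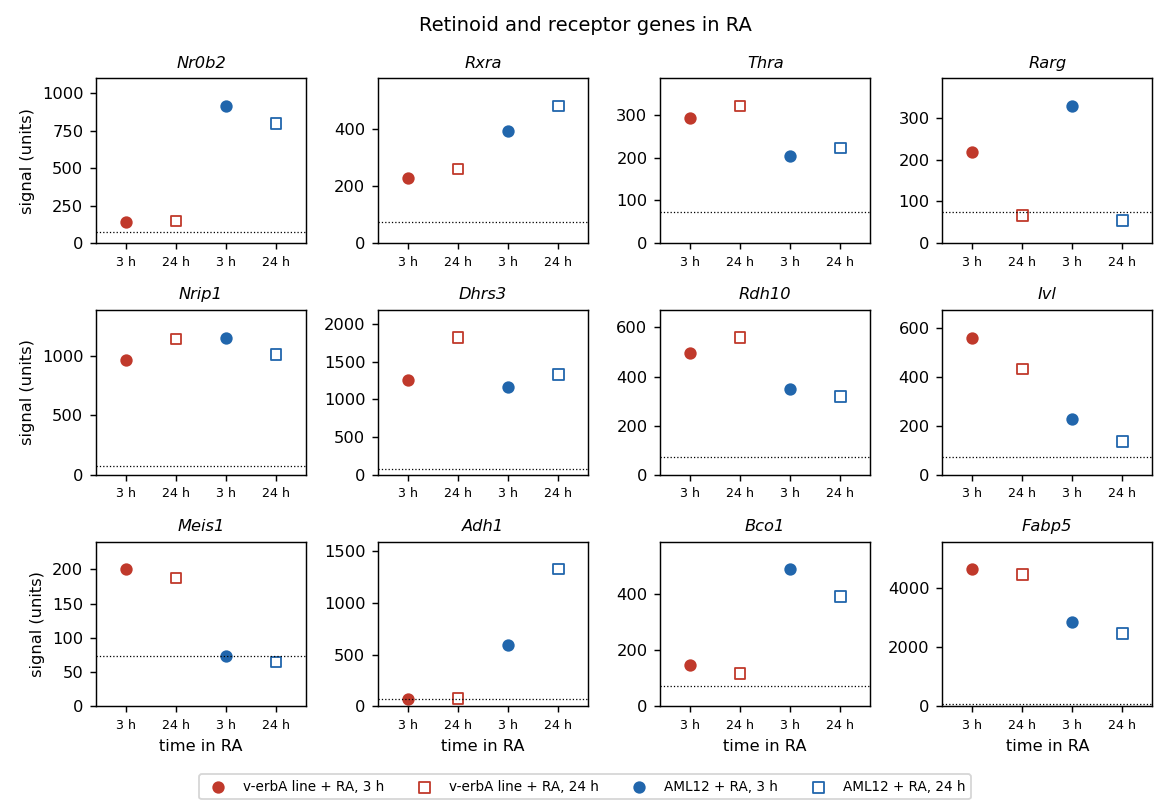
Signal intensity of 12 retinoid, receptor and receptor-target genes in RA, with the v-erbA line (red) left of AML12 (blue), 3 h filled and 24 h open, each panel starting at 0 and the dotted line at 73.5 units. Nr0b2, Rxra, Adh1 and Bco1 lie lower in the v-erbA line at both times, Ivl, Meis1, Rdh10 and Fabp5 higher, and Nrip1 and Rarg have no constant order.

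The promoters of these genes were read for the hexamer AGGTCA, the core element that retinoic acid, thyroid hormone and retinoid X receptors bind. RefSeq windows of 300 bases (250 before to 50 after a gene start, GRCm38.p6) were matched for 9732 of the tested genes, 12454 windows in all, and both strands were searched. The core element was present in 13.1% of all windows. It was present in 11.4% of the windows of genes higher in the v-erbA line and 14.2% of those of genes lower. Among genes at least 2-fold higher the share was 14.1% of 185 windows, and among genes at least 2-fold lower 19.01% of 242 windows. A direct repeat of the core element spaced by 1 to 5 bases stood in 5 windows of the 12454. The windows below were chosen because they hold the core element in genes described above, and do not stand for the others. Core elements are in capitals, as AGGTCA or as its reverse complement TGACCT. A match is a description of letters and not of binding.
Bco1, chr8:117095615-117095914, plus strand: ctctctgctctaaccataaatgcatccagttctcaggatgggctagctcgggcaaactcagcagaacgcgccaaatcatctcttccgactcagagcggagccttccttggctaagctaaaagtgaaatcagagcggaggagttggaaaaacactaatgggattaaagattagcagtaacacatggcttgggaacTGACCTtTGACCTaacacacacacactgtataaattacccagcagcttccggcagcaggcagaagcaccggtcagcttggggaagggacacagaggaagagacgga
Rxra, chr2:27709042-27709341, plus strand: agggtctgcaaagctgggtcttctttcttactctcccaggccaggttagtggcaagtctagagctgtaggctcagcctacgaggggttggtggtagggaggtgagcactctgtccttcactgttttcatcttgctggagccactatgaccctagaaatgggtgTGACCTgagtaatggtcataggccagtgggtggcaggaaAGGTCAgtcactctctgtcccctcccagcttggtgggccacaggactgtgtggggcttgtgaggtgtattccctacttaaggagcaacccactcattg
Igf2r, chr17:12769657-12769956, minus strand: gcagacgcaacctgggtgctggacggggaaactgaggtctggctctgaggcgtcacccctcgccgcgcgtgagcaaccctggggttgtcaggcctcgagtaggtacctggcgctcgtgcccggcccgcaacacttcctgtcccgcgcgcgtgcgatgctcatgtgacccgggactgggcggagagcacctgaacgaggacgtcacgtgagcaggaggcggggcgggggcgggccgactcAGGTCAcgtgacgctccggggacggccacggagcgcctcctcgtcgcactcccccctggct
Klhl13, chrX:23365014-23365313, minus strand: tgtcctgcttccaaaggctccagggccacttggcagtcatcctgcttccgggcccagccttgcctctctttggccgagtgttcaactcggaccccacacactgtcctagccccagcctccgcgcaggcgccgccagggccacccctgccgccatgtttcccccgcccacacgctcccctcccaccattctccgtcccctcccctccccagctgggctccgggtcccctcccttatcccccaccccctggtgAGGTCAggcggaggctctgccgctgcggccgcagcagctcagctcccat
Prss23, chr7:89518155-89518454, minus strand: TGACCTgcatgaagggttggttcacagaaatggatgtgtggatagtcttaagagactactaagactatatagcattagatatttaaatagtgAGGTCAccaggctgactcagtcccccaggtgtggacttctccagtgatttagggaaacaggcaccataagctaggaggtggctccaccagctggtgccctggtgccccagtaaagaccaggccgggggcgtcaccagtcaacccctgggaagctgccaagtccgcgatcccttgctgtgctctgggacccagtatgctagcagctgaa
Bco1 was the one gene at least 2-fold lower whose window held a direct repeat, 2 TGACCT hexamers spaced by 1 base. Rxra had 2 core elements on opposite strands, Igf2r and Klhl13 had 1 each, and Prss23, which was higher in the v-erbA line, had 2. Of the windows of each gene, 2 of 5 held the element in Klhl13, 2 of 7 in Prss23 and 1 of 2 in Rxra. Of the 30 genes with the largest changes, 24 had a window and 3 had the element in at least 1 window.

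Genes that mark hepatocytes were lower more often than higher in the v-erbA line, while 18.1% of all genes tested were lower and 15.1% higher. Of 33 hepatocyte markers tested, 17 were lower and 6 higher, with a median log2 difference of -0.58; leaving out each RA array in turn, 11 to 15 were lower. Albumin itself did not pass: Alb had 9609.5 and 9408 units in the v-erbA line and 10016 and 9860.4 units in AML12 (adjusted p = 0.398), near the highest signal in the table, 12275 units. Cebpa, a transcription factor of hepatocyte differentiation, had 315 and 366 units in the v-erbA line and 636 and 817 units in AML12, a difference of -1.04 ± 0.09 (SE; adjusted p = 1.05e-04). Against the trend, Serpina1c, an alpha-1 antitrypsin gene, had 711 and 989 units in the v-erbA line and 183 and 150.1 units in AML12, a difference of 2.21 ± 0.40 (SE; adjusted p = 0.00403), although it belongs to a family of near-identical copies that this array may not separate. Afp, the fetal counterpart of albumin, had 268 and 203 units in the v-erbA line and 156 and 104 units in AML12, a difference of 0.78 ± 0.14 (SE; adjusted p = 0.00442). Hepatocyte RNA was present in both lines: all 7 measured defining hepatocyte markers exceeded 73.5 units on each of the 4 arrays, with summed signals of 23860 and 23442 units in the v-erbA line and 28467 and 28632 units in AML12.

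In the groups that follow, each gene named passed the test unless stated, and ± is the standard error of the log2 difference. Counts of each group are to be read against the shares of all genes tested, 18.1% lower and 15.1% higher. Several apolipoproteins were lower. Of 23 genes of lipoprotein handling tested, 9 were lower and 1 higher (6 to 10 lower with each RA array left out). Apoa1, the main protein of HDL, had 282 and 389 units in the v-erbA line and 2264 and 1823 units in AML12, a difference of -2.55 ± 0.40 (SE; adjusted p = 0.00223). Apoc1, a lipoprotein-bound inhibitor of lipases, had 478 and 1058 units in the v-erbA line and 3205 and 4914 units in AML12, a difference of -2.45 ± 0.10. Apob, the structural protein of VLDL and LDL, had 599.6 and 318 units in the v-erbA line and 1189 and 2294 units in AML12, a difference of -1.87 ± 0.35, and lost its call without the 24 h array of the v-erbA line. Apoh, which binds phospholipids in plasma, had 753 and 854 units in the v-erbA line and 2795 and 2866 units in AML12, a difference of -1.79 ± 0.24. The higher gene was Abca1, the cholesterol exporter, with a difference of 0.27.

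Other plasma proteins moved in part, while 18.1% of all genes tested were lower and 15.1% higher. Among 21 coagulation and fibrinolysis genes, 7 were lower and 1 higher. Kng1, the kininogen that releases bradykinin, had 57.2 and 77 units in the v-erbA line and 274 and 416 units in AML12, a difference of -2.05 ± 0.21 (SE; adjusted p = 2.47e-04). F2, prothrombin, had 64.1 and 90.9 units in the v-erbA line and 194 and 234 units in AML12, a difference of -1.27 ± 0.16, and Fgg, the fibrinogen gamma chain, 46.1 and 85.8 units in the v-erbA line and 219 and 196 units in AML12, a difference of -1.44 ± 0.26. Thbd, the thrombin receptor thrombomodulin, had 6.2 and 7.2 units in the v-erbA line and 97.6 and 127 units in AML12 (at least 1.41-fold lower). Among 25 acute phase proteins, 8 were lower and 4 higher, but 3 to 7 were lower with each RA array left out. Lrg1, a leucine-rich plasma glycoprotein, had 72.6 and 82.5 units in the v-erbA line and 964 and 1158 units in AML12, a difference of -3.47 ± 0.26. Among 14 complement genes, 3 were lower and 1 higher, and C1s1, a protease of the classical pathway, had 205 and 313 units in the v-erbA line and 745 and 735 units in AML12, a difference of -1.47 ± 0.18. Cfi, the complement inhibitor factor I, was higher, with 5915 and 7105 units in the v-erbA line and 4698 and 5983 units in AML12, a difference of 0.29 ± 0.05.

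Most genes of amino acid breakdown and the urea cycle were lower: 23 of 33 genes tested were lower and 1 higher, with a median log2 difference of -0.56 (11 to 20 lower with each RA array left out). Kyat3, described above, changed most. Uroc1, urocanase of histidine breakdown, had 16.2 and 45.2 units in the v-erbA line and 86.3 and 397 units in AML12 (at least 2.25-fold lower). Gnmt, which consumes methyl groups by methylating glycine, had 190.4 and 62 units in the v-erbA line and 458 and 744 units in AML12, a difference of -2.20 ± 0.70 (SE; adjusted p = 0.0422); it lost its call without the 24 h array of the v-erbA line and without either RA array of AML12. Otc, of the urea cycle, had 21.4 and 53.4 units in the v-erbA line and 65.8 and 324 units in AML12 (at least 1.84-fold lower) and lost its call without the 24 h array of either line. The higher gene was Ftcd, of histidine breakdown, with a difference of 0.80. Of 27 amino acid transporters, 7 were lower and 3 higher, and 3 to 6 lower with each RA array left out.

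Many enzymes that oxidise and conjugate drugs and endogenous lipids were lower too. Of 22 cytochrome P450 genes tested, 12 were lower and 1 higher, with a median of -0.46 (7 to 9 lower with each RA array left out). Cyp4f14, a fatty acid and leukotriene hydroxylase, had 109.5 and 124 units in the v-erbA line and 399 and 750.0 units in AML12, a difference of -2.06 ± 0.25 (SE; adjusted p = 6.11e-04). Cyp4v3, another fatty acid hydroxylase, had 175 and 171 units in the v-erbA line and 665 and 631 units in AML12, a difference of -1.79 ± 0.16. Of 48 conjugation and oxidoreductase genes, 25 were lower and 3 higher, with a median of -0.28. Fmo5, a flavin monooxygenase, had 226 and 328 units in the v-erbA line and 844 and 1237 units in AML12, a difference of -1.83 ± 0.13. Sult1d1, a sulfotransferase, had 213 and 193 units in the v-erbA line and 597 and 635 units in AML12, a difference of -1.51 ± 0.16. Gsta2, a glutathione transferase with close paralogs, had 53.1 and 66.8 units in the v-erbA line and 218 and 389 units in AML12 (at least 3.34-fold lower).

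In the lists of lipid synthesis and oxidation, all genes that passed were lower. No gene of cholesterol synthesis passed as higher; 15 of 23 were lower, with a median of -0.56 (12 to 13 lower with each RA array left out). Insig1, the sterol-regulated retention factor of the SREBP pathway, had 163 and 213 units in the v-erbA line and 420.4 and 542 units in AML12, a difference of -1.27 ± 0.10 (SE; adjusted p = 9.08e-05). Fdft1, squalene synthase, had 416 and 701 units in the v-erbA line and 1066 and 1290.0 units in AML12, a difference of -1.09 ± 0.13, and Idi1, isopentenyl diphosphate isomerase, 738 and 905 units in the v-erbA line and 1502 and 1558 units in AML12, a difference of -0.89 ± 0.09. Of 36 genes of fatty acid and triglyceride synthesis, 17 were lower and 0 higher (11 to 13 lower with each RA array left out). Scd1, the desaturase that makes oleate, had 446 and 1052 units in the v-erbA line and 1686 and 2831 units in AML12, a difference of -1.64 ± 0.24. Mlxipl, the carbohydrate response factor ChREBP, had 229 and 282 units in the v-erbA line and 619 and 818 units in AML12, a difference of -1.42 ± 0.11. Of 38 genes of fatty acid oxidation and ketone bodies, 17 were lower and 0 higher (11 to 18 lower with each RA array left out). Acaa1b, a peroxisomal thiolase, had 143 and 263 units in the v-erbA line and 609.7 and 799.5 units in AML12, a difference of -1.74 ± 0.17, and Fabp1, the liver fatty acid carrier, 584 and 676 units in the v-erbA line and 1471 and 2077 units in AML12, a difference of -1.45 ± 0.20. With all arrays in the fit, the lists of genes that make and that burn fatty acids thus both held members that passed as lower. Neither held a member that passed as higher, and 19 and 21 members did not pass.

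In glucose metabolism, 10 of 25 genes of glycogen and gluconeogenesis were lower and 4 higher, and 3 to 10 were lower with each RA array left out. Gckr, the inhibitor of glucokinase, had 135 and 192 units in the v-erbA line and 593 and 756 units in AML12, a difference of -1.93 ± 0.11 (SE; adjusted p = 2.14e-05). Fbp2, a fructose bisphosphatase, had 39.3 and 42.4 units in the v-erbA line and 206 and 192 units in AML12 (at least 2.34-fold lower). Of 31 genes of glycolysis and hypoxia, 14 were lower and 1 higher (9 to 14 lower with each RA array left out). Aldoc, an aldolase, had 96.6 and 84.2 units in the v-erbA line and 397 and 445 units in AML12, a difference of -1.999 ± 0.21. Slc2a1, the glucose transporter GLUT1, had 327 and 269 units in the v-erbA line and 668 and 611 units in AML12, a difference of -1.06 ± 0.11, and Epas1, which encodes the hypoxia factor HIF-2 alpha, 361 and 241 units in the v-erbA line and 704 and 707 units in AML12, a difference of -1.20 ± 0.22.

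Genes of protein folding in the endoplasmic reticulum and of the amino acid response were lower in the v-erbA line in 21 of 33 cases and higher in 4, with a median of -0.49. Sdf2l1, a component of the chaperone complex of that compartment, had 358 and 353 units in the v-erbA line and 1154 and 1107 units in AML12, a difference of -1.61 ± 0.09 (SE; adjusted p = 1.34e-05). Creld2, a secreted factor induced by misfolded proteins, had 617 and 411 units in the v-erbA line and 1440.1 and 918 units in AML12, a difference of -1.16 ± 0.07. Pdia6, a disulfide isomerase, had 1151 and 1106 units in the v-erbA line and 2190.4 and 2200.3 units in AML12, a difference of -0.95 ± 0.06. Trib3, a pseudokinase induced by ATF4, had 427 and 588 units in the v-erbA line and 1275 and 1200.4 units in AML12, a difference of -1.27 ± 0.12. The higher members were Asns, Chac1, Psat1 and Mthfd2, with differences from 0.25 to 0.50; Asns, Psat1 and Mthfd2 act in amino acid and one-carbon synthesis, and these 4 were named after their values were seen.

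Proteasome subunits shifted by small and even amounts. Of 31 subunits tested, 23 were lower and 0 higher, with a median log2 difference of -0.29 (13 to 17 lower with each RA array left out). Psmc2, an ATPase of the regulatory particle, had 3465 and 3017 units in the v-erbA line and 5017 and 4273 units in AML12, a difference of -0.52 ± 0.05 (SE; adjusted p = 1.57e-04). Psma7, of the catalytic core, had 2816 and 2615 units in the v-erbA line and 4089.8 and 3627 units in AML12, a difference of -0.50 ± 0.05. No subunit of this list, which leaves out the immunoproteasome subunits, differed by 2-fold. The list median was -0.32 after median centring of the arrays and -0.24 after quantile normalization.

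Growth factor pathways held single genes with large differences. Some of their counts lay near the shares of all genes, 15.1% higher and 18.1% lower, and others above them. The counts moved with the arrays. In the insulin-like growth factor axis, 6 of 22 genes were higher and 4 lower (4 to 6 higher and 1 to 2 lower with each RA array left out), and in the Wnt and Notch pathway 5 of 30 were higher and 9 lower (2 to 4 higher and 5 to 6 lower). Igf1 had 768 and 825 units in the v-erbA line and 294 and 212 units in AML12, a difference of 1.60 ± 0.16 (SE; adjusted p = 2.47e-04), and its receptor Igf1r 528 and 652 units in the v-erbA line and 225 and 319 units in AML12, a difference of 1.08 ± 0.10, while Igf2r was lower, as described above. In the TGF-beta and BMP pathway, 9 of 38 genes were higher and 5 lower (5 to 7 higher with each RA array left out). Tgfb2, a ligand, had 918 and 934 units in the v-erbA line and 215 and 199 units in AML12, a difference of 2.06 ± 0.13. Tgfbr3, the coreceptor betaglycan that presents this ligand, had 148 and 129 units in the v-erbA line and 6.9 and 21.2 units in AML12 (at least 1.69-fold higher). Fst, the activin antagonist follistatin, had 121 and 62.7 units in the v-erbA line and 19.1 and 8.2 units in AML12 (at least 1.15-fold higher). Inhbb, an activin subunit, was lower, with 64.5 and 58.9 units in the v-erbA line and 209.7 and 167 units in AML12 (at least 2.22-fold lower); this call was lost when all its probe sets were averaged.

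Of 37 actin and smooth muscle cytoskeleton genes, 12 were higher and 5 lower, and with each RA array left out there were 7 to 11 higher and 1 to 2 lower. Ccn1, a matricellular protein and YAP target, had 2254 and 3088 units in the v-erbA line and 952 and 1390.1 units in AML12, a difference of 1.18 ± 0.08 (SE; adjusted p = 3.12e-05). Ccn2, a gene of the same family that is also known as a YAP target, ran the other way and passed as lower in the v-erbA line. The YAP targets named here thus had no common direction. Flnc, the actin crosslinker filamin C, had 409 and 447 units in the v-erbA line and 211 and 193 units in AML12, a difference of 1.01 ± 0.10. Of 37 AP-1 and immediate early genes, 13 were higher and 7 lower (8 to 12 higher with each RA array left out). Atf3, a stress-induced factor, had 199 and 239 units in the v-erbA line and 74.3 and 67.9 units in AML12, a difference of 1.39 ± 0.21. Fos, an AP-1 subunit, had 95 and 87.8 units in the v-erbA line and 26.1 and 27.7 units in AML12 (at least 1.19-fold higher) and lost its call without the 24 h array of the v-erbA line and without the 3 h array of AML12. Fosl1, the related AP-1 subunit Fra-1, ran the other way, with 135 and 85.1 units in the v-erbA line and 679 and 695 units in AML12, a difference of -2.47 ± 0.13.

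Inflammatory genes were mixed. Of 36 chemokines and NF-kappaB targets, 12 were higher and 9 lower; with each RA array left out, 7 to 12 were higher and 3 to 8 lower. Cxcl17, a mucosal chemokine, had 1347 and 1504 units in the v-erbA line and 435 and 281 units in AML12, a difference of 1.96 ± 0.17 (SE; adjusted p = 1.16e-04). Ccl20, a chemokine for lymphocytes and dendritic cells, had 1034 and 2611 units in the v-erbA line and 169.6 and 1255 units in AML12, a difference of 1.76 ± 0.29, and was brighter at 24 h than at 3 h in both lines. Cxcl14, another chemokine, was lower, with 16 and 24.4 units in the v-erbA line and 89 and 109 units in AML12 (at least 1.27-fold lower). Of 45 interferon-stimulated and antigen presentation genes, 18 were lower and 7 higher (11 to 13 lower with each RA array left out). Psmb8, an immunoproteasome subunit, had 70.9 and 92.3 units in the v-erbA line and 277 and 279 units in AML12, a difference of -1.56 ± 0.14. Cxcl10, an interferon-induced chemokine, was higher, with 191 and 197 units in the v-erbA line and 48.6 and 75.8 units in AML12, a difference of 1.40 ± 0.14, and so was Ifit2, with 304 and 346 units in the v-erbA line and 117 and 155 units in AML12, a difference of 1.15 ± 0.14.

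Matrix and surface genes showed no common direction. Of 32 collagens, laminins and matrix genes, 6 were higher and 6 lower, and with each RA array left out 2 to 4 were higher. Fbln2, the elastic fibre protein fibulin 2, had 337 and 183 units in the v-erbA line and 1613 and 934 units in AML12, a difference of -2.21 ± 0.08 (SE; adjusted p = 2.43e-06). Col4a5, a basement membrane collagen chain, had 696 and 1169 units in the v-erbA line and 271 and 494 units in AML12, a difference of 1.254 ± 0.08. Of 35 integrins and matrix proteases, 5 were higher and 10 lower, among them Itgb5, an integrin chain, with 260.3 and 308 units in the v-erbA line and 497 and 708 units in AML12, a difference of -1.02 ± 0.09. Of 26 junction genes, 5 were higher and 10 lower (3 to 5 lower with each RA array left out). Cldn2, a claudin that forms cation pores, had 1861 and 955 units in the v-erbA line and 5320.1 and 3407 units in AML12, a difference of -1.66 ± 0.15. Gjb1, the main connexin of hepatocytes, had 522 and 419.9 units in the v-erbA line and 1063 and 827 units in AML12, a difference of -0.97 ± 0.20; it lost its call without the 24 h array of the v-erbA line and without the 3 h array of AML12. Of 14 Hox, Meis and Pbx genes, 5 were higher and 2 lower (3 to 4 higher and 1 to 2 lower with each RA array left out), with Hoxb13, a posterior Hox gene, at 249.1 and 231 units in the v-erbA line and 24.9 and 16.4 units in AML12 (at least 2.78-fold higher).

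Few cell division genes passed with all arrays, and the counts moved with the arrays. Of 40 mitosis genes, 2 were lower and 0 higher, and there were 0 to 3 higher and 0 to 7 lower with each RA array left out. Of 38 replication genes, 2 were lower and 1 higher, and there were 0 to 2 higher and 0 to 6 lower with each RA array left out. The mitosis median was 0.21 at 3 h and -0.16 at 24 h, so the times pointed in opposite directions. Over both times it was 0.04 with RA and 0.43 without RA, and this gap was not tested. Of 38 genes of the mitochondrial respiratory chain, 9 were lower and 6 higher (0 to 1 higher and 1 to 6 lower with each RA array left out), with a median of 0.01. Biliary markers were present in both lines: all 4 measured exceeded 73.5 units on each of the 4 arrays, with summed signals of 4125 and 3806 units in the v-erbA line and 5953 and 4772 units in AML12. Of 15 biliary and progenitor genes tested, 4 were higher and 4 lower (3 to 4 higher and 2 to 3 lower with each RA array left out). Markers of fibroblasts, leukocytes and endothelium were mostly dim. Of 9 fibroblast markers, 6 lay under 73.5 units on all 4 RA arrays, as did 4 of 6 macrophage and leukocyte markers and 4 of 6 endothelial markers, and none was listed at 0. The summed endothelial signal was 136 and 310 units in the v-erbA line and 190.1 and 254 units in AML12, and the summed fibroblast signal 434 and 297 units in the v-erbA line and 420 and 386 units in AML12. In bulk RNA, fewer cells that express a gene and less RNA per cell cannot be told apart.

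**Figure D4:**
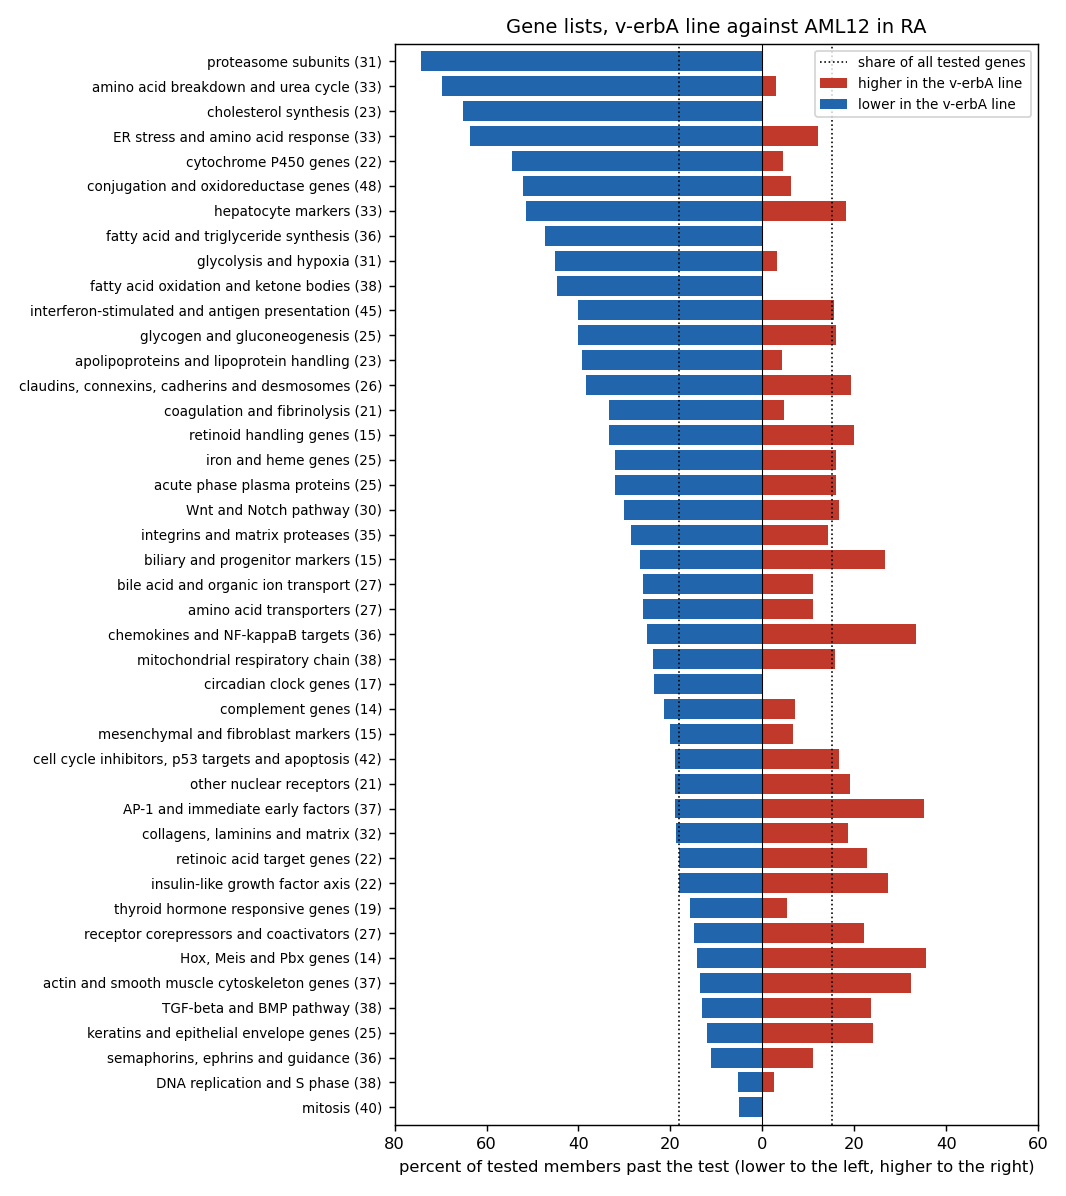
Each row is a list of related genes with the number of tested members in parentheses (the shortest lists are left out); bars show the percent of members that passed the test as lower (blue, left) or higher (red, right) in the v-erbA line in RA, and dotted lines mark the shares of all tested genes, 18.1% lower and 15.1% higher. Proteasome, amino acid breakdown, cholesterol synthesis and endoplasmic reticulum folding genes have the longest blue bars, and mitosis genes the shortest.

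The difference between the lines also followed position in the genome. On chromosome 14, 39.2% of 403 tested genes were lower in the v-erbA line and 3.47% higher, with a median log2 difference of -0.18. Chromosome 2 (median -0.16), chromosome 4 (-0.14) and chromosome 16 (-0.13) were lower too. Chromosome 12 (median 0.20), with 33.7% of genes higher and 5.57% lower, and chromosome 19 (0.19), with 37.5% higher and 7.59% lower, ran the other way. The medians over chromosomes had an SD of 0.11 at 3 h and 0.11 at 24 h of RA. Without RA the SD was similar, 0.11 at 3 h and 0.11 at 24 h, on arrays that the RA pairs do not share. Between times within a line in RA the SD was 0.018 in the v-erbA line and 0.013 in AML12. On chromosome 14 the median was -0.21 and -0.19 at 3 h and 24 h with RA, and -0.21 and -0.18 without RA.

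**Figure D5:**
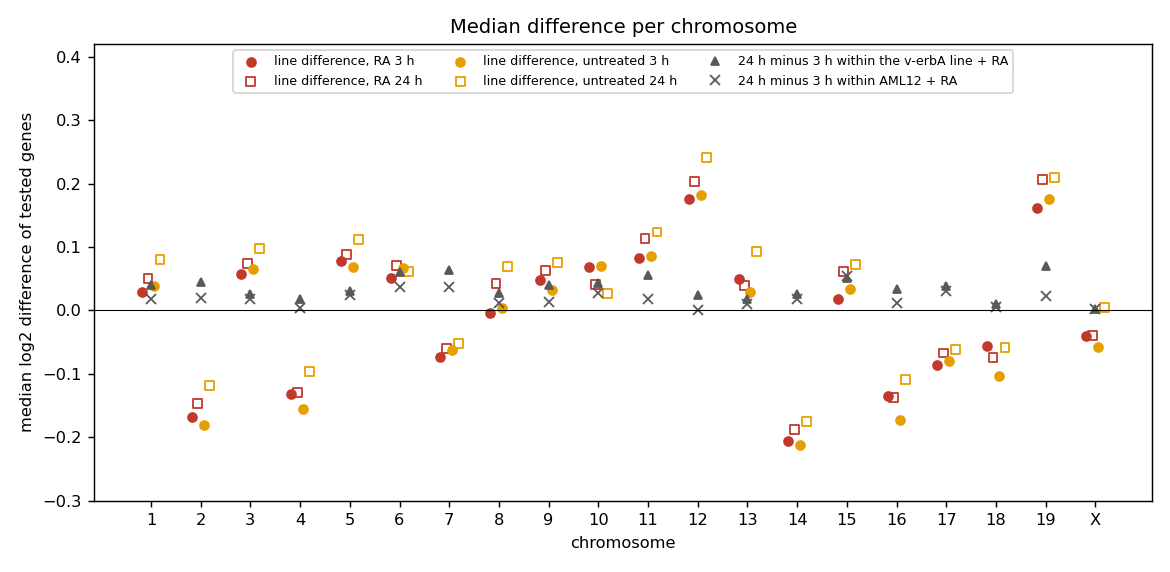
Median log2 difference of the tested genes on each chromosome: red marks are the v-erbA line minus AML12 in RA and orange marks the same without RA, filled for 3 h and open for 24 h, while grey marks are 24 h minus 3 h within each line in RA. The 4 line differences fall together on each chromosome, lowest on chromosome 14 and highest on chromosomes 12 and 19, and the grey marks stay between 0.00 and 0.07.

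On some chromosomes the shift changed part of the way along. Chromosome 10 was cut into 19 windows of 30 tested genes each. The first 8 windows, from Ppp1r14c to Mmp11, all had medians below 0, from -0.34 to -0.08, with 106 genes lower and 23 higher of 240. The next 11 windows, from Chchd10 to Cs, all had medians above 0, from 0.06 to 0.29, with 109 genes higher and 21 lower of 330. The order was the same in the untreated pairs: the first 8 windows had medians from -0.40 to -0.05 at 3 h and from -0.32 to -0.07 at 24 h, and the next 11 from 0.06 to 0.31 and from 0.02 to 0.34. On chromosome 11 the first 5 windows, from Sfi1 to Ccng1, had medians from 0.27 to 0.45, with 79 genes higher and 5 lower of 150, while the other 28 lay between -0.07 and 0.16. These windows were singled out after their values were seen, and the number of DNA copies in the lines was not measured.

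Runs of neighbours that passed in 1 direction included gene clusters described above. On chromosome 7, 7 adjacent tested genes from Apoc2 to Bcam, among them Apoc4, Apoc1 and Apoe, were all lower, with a median of -0.98 with RA and -0.96 without. On chromosome 3, 5 glutathione transferase genes from Gstm7 to Gstm1 were lower, with a median of -0.66; these paralogs are near-identical in sequence, so their probe sets may not separate them. On chromosome 17, Psmb9, Tap1, Psmb8, Tap2 and H2-Ab1 of antigen presentation were lower, with a median of -0.61. On chromosome 12, 9 adjacent genes from Ylpm1 to Nek9 were higher, with a median of 0.49. With the median of its chromosome taken off each gene, an alternative chosen after the data were seen, the list medians were -0.51 for amino acid breakdown, -0.51 for hepatocyte markers, -0.50 for cholesterol synthesis, -0.53 for protein folding and -0.25 for the proteasome. This takes off the median of a whole chromosome and not shifts along it, whose part in the list differences was not tested.

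The line difference in RA was close to the line difference without RA. Of the 3982 genes, 3927 (98.6%) had the same direction in both untreated pairs as well, and the mean without RA had the opposite sign in 13. The untreated arrays enter the spread behind these calls, so the test itself favours genes whose untreated pairs are alike. The matching share over all 11997 genes is not given here. Of the 399 genes at least 2-fold different with RA, 340 were at least 2-fold different without RA. Across the 11997 genes the Pearson r between the effect with RA and the effect without was 0.93, given as a description; the arrays differ, but cells, array type and scaling are shared. The effect with RA minus the effect without was tested with 3 residual degrees of freedom. Few calls in it therefore do not show that both effects are equal. In limma 199 genes had an unadjusted p under 0.05 for this contrast, the smallest adjusted p was 1.00 and 0 genes (0%) passed. Without the 3 h RA array of AML12 the count was 2.

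A small set of genes was 2-fold different with RA and under 1.5-fold different without it: Akr1c14, Amhr2, Apob, Cenpm, Clec2d, Cxcl5 and Hpgd, named after their values were seen. Hpgd, which inactivates prostaglandins, had 387 and 201 units in the v-erbA line with RA and 132 and 92.3 in AML12, and without RA 549.9 and 436 in the v-erbA line and 368 and 325 in AML12. The effect with RA minus without was 0.72 ± 0.22 (SE; adjusted p = 1.00 in limma). Apob had 624 and 442 units in the untreated v-erbA line and 927 and 567 in untreated AML12, and its effect with RA minus without was -1.42 ± 0.50 (SE; adjusted p = 1.00 in limma). Akr1c14, a hydroxysteroid dehydrogenase, gave 0.65 ± 0.26 (SE; adjusted p = 1.00 in limma). These differences did not pass the adjustment. By the naming rule, the smallest unadjusted p of this contrast in limma belonged to Mgll, Zfr2, Upk1a, Tfrc and Fv1. In each of them the line difference was smaller with RA than without. It was -0.03 with RA and -1.18 without in Mgll, and -0.06 and 1.59 in Zfr2. Upk1a had -0.07 and 1.54, Tfrc 0.28 and 0.66, and Fv1 -0.10 and -0.91. None of them passed the adjustment either.

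Few genes had a line difference that itself differed between the times. The line effect at 24 h minus that at 3 h, fitted over both treatments, passed for 10 genes (0.0834%), 4 higher and 6 lower at 24 h, and 879 genes had an unadjusted p under 0.05. This count moved with the arrays: it was 379 without the 3 h and 382 without the 24 h RA array of AML12, and 135 and 131 without the matching untreated AML12 arrays. By the naming rule, genes with a ratio at 1 time alone, which has no test, were Rasal1, Fam131a, F12 and Lce1h (higher at 3 h), Rph3a, Tas1r2, Camta1 and Ybey (lower at 3 h), Drd1, Csf3, Defa31 and Atp1b2 (higher at 24 h), and Thsd4, Cd8a, Rusc2 and Gjb2 (lower at 24 h). Csf3, the granulocyte growth factor G-CSF, had 128 and 184 units in the v-erbA line at 3 h and 24 h, against 115 and 47.8 units in AML12. It did not pass the test of the line effect in RA (adjusted p = 0.0779), and its values rest on 1 array per line and time. Gjb2 did pass that limma test (adjusted p = 0.0373), with log2 ratios of -0.28 at 3 h and -1.59 at 24 h.

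Other probe sets of the same gene gave a check within each array. For genes that passed at 2-fold or more, 208 of 221 other probe sets over 73.5 units (94.1%) had the same sign as the chosen one and 108 were also at least 2-fold, over 150 genes. For all genes that passed, 3223 of 3706 (87.0%) had the same sign, and for genes that did not pass, 3749 of 5650 (66.4%). Probe sets of a gene share RNA and array, so this bears on the probes and not on the replication of the cultures.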

How the data were processed

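RNA of AML12 and v-erbA-transfected AML12 hepatocytes, untreated or in RA, was read on 8 Affymetrix arrays. The authors deposited 1 linear signal intensity per probe set and array (45037 probe sets); the summarization and scaling behind these intensities were not stated in any source consulted, and the values were not rescaled. Probe sets with 1 gene in the platform annotation (34944; 932 had several genes and 9160 none) gave 18192 genes, of which 6195 were dim and left out. No deposited column was left unused. Values were fitted in R 4.3.3 with limma 3.58.1 (lmFit, eBayes with trend) as 4 groups of line and treatment plus time, with 3 residual degrees of freedom, and Benjamini-Hochberg adjusted at 0.05. The line by time term was added for the difference between times, leaving 2. Tables and plots were made in Python 3.11.15 and matplotlib 3.10.9. In simulated data of these 11997 genes, 85% of genes changed by 1 on the log2 scale and 28% of those changed by 0.5 were recovered, with 3 false calls. There, far fewer genes carried an effect than passed in the data. Noise was independent between genes, and no line effect varied with treatment or time. These values therefore do not give the error rate of the calls in the data. The members and gene lists (46) were chosen with earlier results of these data known. Genes were named by rank of change among calls (15 per direction, 4 per list), by the pair rule (4 per time and direction), by the tests of differences, or from a fixed list of receptors, RA targets and hepatocyte genes. The alternatives changed the offset, scaling, dim filter, probe sets, variance trend, arrays and model. The number of arrays limits the precision. RefSeq supplied promoters and gene order (GRCm38.p6).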

Additional observations from a re-analysis of the deposited data

Results flagged for a closer look

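For 10 genes the difference between the lines itself differed between the times, by limma's line by time term over both treatments. The values are log2 differences of the v-erbA line minus AML12 at 24 h less those at 3 h. Rph3a, an effector of Rab3 in vesicle release, gave 4.53 ± 0.17 (SE; adjusted p = 4.84e-05). In RA it had 62 and 58.2 units at 3 h and 24 h in the v-erbA line and 1694 and 42.8 units in AML12, and without RA 66 and 53.5 units in the v-erbA line and 1686 and 50.9 units in AML12. The high signal thus stood on both 3 h arrays of AML12 and nowhere else. Rasal1, a Ras GTPase activating protein, gave -3.29 ± 0.31 (SE; adjusted p = 0.0191), with 255 and 16.1 units in the v-erbA line in RA and 1.0 and 15.5 units in AML12. Drd1, a dopamine receptor, gave 3.11 ± 0.31 (SE; adjusted p = 0.0191), with 4.3 and 172 units in the v-erbA line in RA and 5.3 and 6.0 units in AML12. Cd8a, a T cell coreceptor, gave -2.36 ± 0.16 (SE; adjusted p = 0.0029), with 45.4 and 555 units in the v-erbA line in RA and 28.4 and 2578 units in AML12.

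Gnmt gave -2.76 ± 0.32 (SE; adjusted p = 0.0362) and was the only one of the 10 that also passed the test of the line effect in RA. The other genes were 1700021F07Rik at 1.94 ± 0.19 (SE; adjusted p = 0.0191), Ybey at 1.94 ± 0.23 (SE; adjusted p = 0.0411), Thsd4 at -2.26 ± 0.23 (SE; adjusted p = 0.0191), Myl2 at -1.87 ± 0.23 (SE; adjusted p = 0.0478) and Spon2 at -1.25 ± 0.13 (SE; adjusted p = 0.0191). For 5 of the 10 genes other probe sets were present, 8 in all. In RA their line difference at 24 h less that at 3 h lay between -0.77 and 0.89, and 7 of these 8 stayed below 73.5 units on all 4 RA arrays. The brighter one belonged to Cd8a and ran the other way. Its line difference in RA was -0.22 at 3 h and 0.28 at 24 h, against 0.43 and -2.18 in the chosen probe set.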

How the results depend on the processing

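The count of 3982 genes different in RA lay between 3228 and 4983 under other offsets, scalings, filters, probe set rules and models, with 1487 higher and 2442 lower after median centring and 2051 higher and 1952 lower after quantile normalization. Leaving out 1 array at a time gave 1526 to 4683 genes. The contrast with RA minus without RA gave 0 to 2 genes with 1 array left out. The contrast of 24 h minus 3 h gave 8 to 382 genes with 1 array left out, 43 after median centring, 16 without the filter on dim genes and 1 without the mean-variance trend; without the filter more genes were tested, and for the others the cause was not tested. With an offset at the 50th percentile, which shrinks ratios, 225 genes at 3 h and 276 at 24 h reached 2-fold. The 30 genes with the largest changes kept direction and call in all 538 values over 18 alternatives. Their choice by size of change in these same arrays favours this. Elavl2 and Mbnl3 had no value under the filter on the mean of all 8 arrays. Over all named genes, 145 values lost the call, 30 gained it and 0 reversed. Time, which pairs the arrays, is in the model; the 4 RA arrays alone, paired by time with 1 residual degree of freedom, gave 4573 genes. Signal near background limits what can be read: 137 passing genes were below 73.5 units on both v-erbA arrays in RA and 156 on both AML12 arrays.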

Other observations

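Genes of iron and heme handling were measured in both lines: of 25 tested, 8 were lower and 4 higher in the v-erbA line in RA, against 18.1% and 15.1% of all genes. With each RA array left out, 2 were higher and 4 to 6 lower. Slc40a1, the iron exporter ferroportin, had 3421 and 3558 units in the v-erbA line and 1460.3 and 1307 units in AML12, a log2 difference of 1.32 ± 0.15 (SE; adjusted p = 4.27e-04). Alad, an enzyme of heme synthesis, had 506 and 486 units in the v-erbA line and 939.8 and 926 units in AML12, a difference of -0.89 ± 0.10 (SE; adjusted p = 4.93e-04), and Urod, another, 759 and 701 units in the v-erbA line and 1101 and 1081 units in AML12, a difference of -0.57 ± 0.07 (SE; adjusted p = 8.51e-04). Among 27 genes of bile acid and organic ion transport, 7 were lower and 3 higher, and with each RA array left out there were 1 to 3 higher and 4 to 5 lower. Abcc2, the canalicular pump for conjugated bilirubin, had 225 and 243 units in the v-erbA line and 397 and 467 units in AML12, a difference of -0.83 ± 0.10 (SE; adjusted p = 5.58e-04). Glul, glutamine synthetase, a Wnt-controlled enzyme of hepatocytes around the central vein, had 1474 and 880.2 units in the v-erbA line and 2916 and 1698 units in AML12, a difference of -0.95 ± 0.11 (SE; adjusted p = 5.09e-04), and was brighter at 3 h than at 24 h in both lines.

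Of 17 circadian clock genes, 4 were lower and 0 higher, against 18.1% and 15.1% of all genes tested. Per2, a repressor of the clock, had 174 and 207 units in the v-erbA line and 329 and 415 units in AML12, a difference of -0.89 ± 0.10 (SE; adjusted p = 3.37e-04). Bhlhe40, another clock repressor that also responds to hypoxia, had 434 and 446 units in the v-erbA line and 798 and 958 units in AML12, a difference of -0.96 ± 0.10 (SE; adjusted p = 3.05e-04). Among 25 keratin and envelope genes, 6 were higher and 3 lower, and with each RA array left out there were 2 to 3 higher and 2 to 3 lower. Krt19, a keratin of bile duct cells, had 2296 and 1561 units in the v-erbA line and 4190.1 and 2559 units in AML12, a difference of -0.78 ± 0.08 (SE; adjusted p = 2.07e-04). Among 42 cell cycle inhibitors, p53 targets and apoptosis genes, 7 were higher and 8 lower, and with each RA array left out there were 3 to 6 higher and 4 to 6 lower. Gadd45b, a stress response gene, had 440.4 and 461 units in the v-erbA line and 213 and 148 units in AML12, a difference of 1.248 ± 0.13 (SE; adjusted p = 2.76e-04), and Perp, a p53 target of desmosomes, 771 and 559 units in the v-erbA line and 1261 and 1165 units in AML12, a difference of -0.86 ± 0.09 (SE; adjusted p = 2.52e-04). Ntn4, the guidance and basement membrane protein netrin 4, had 407 and 434 units in the v-erbA line and 168 and 188 units in AML12, a difference of 1.15 ± 0.09 (SE; adjusted p = 7.83e-05).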
